A study of Mus musculus with 30 samples.

Results

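The genes described here are 10 receptors and secreted proteins that macrophages use to take up modified lipoproteins, dying cells, microbes, glycoproteins and haemoglobin, and several of them are used as markers of the macrophages at the borders of the brain. They are Cd36, Msr1, Marco, Mrc1, Cd163, Stab1, Scarb1, Cd5l, Olr1 and Lyve1. They were chosen by name, as the rows of the gene count table that carry these symbols, and all 10 of 10 were found among 54532 genes. Their RNA was read by bulk sequencing of microglia obtained in 5 ways, without (Control) or with 4 h of HMGB1, which makes 10 groups of 3 libraries, 30 in all. HMGB1 is a nuclear protein that acts as a danger signal when cells release it. All mice carried the genotype given as C57/B6.

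Protocol 1 started from pups of postnatal days 0 to 3, whose brain cells grew as mixed glia, from which microglia were shaken loose. Each of its cell suspensions came from 5 mice. Protocols 1A and 1B were kept for 10 days, with 0.5 ng/ml of the growth factor GM-CSF in 1A and 0 ng/ml in 1B, and Protocol 1C was kept for 21 days with 0.5 ng/ml. Protocol 2 selected cells of mice aged 6 to 8 weeks by adherence and cultured them for 7 days in 100 ng/ml GM-CSF plus 100 ng/ml M-CSF, pooling 3 brains. Protocol 3, also from mice aged 6 to 8 weeks, held cells on magnetic beads against CD11b, with 0 days of culture. CD11b is a surface protein of myeloid cells in general, so beads against it also hold border macrophages, monocytes and neutrophils. Age, selection, growth factors and culture differ together between Protocols 1, 2 and 3, and their contributions to a difference between these protocols cannot be told apart.

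Total counts ran from 14151983 to 28564757 per library, with a median of 21640054.5, and 0 pairs of libraries were identical. Levels are given in CPM, the counts relative to a fixed library total after scaling by the trimmed mean of M-values (TMM), as the 3 libraries in replicate order or as mean ± SD (n = 3). Log2 fold changes carry their standard error after ±. A rise, a fall or a difference was called where the edgeR quasi-likelihood test gave an adjusted p (Benjamini-Hochberg, over all genes tested) below 0.05. The scaling matters in Protocol 1: when libraries were scaled by their totals alone, an alternative chosen after the data were seen, the median response to HMGB1 of all genes shifted to lower values on the log2 scale, by -0.424 (1A), -0.474 (1B) and -0.631 (1C). With DESeq2 size factors the shift was 0.03 (1A), 0.034 (1B) and 0.051 (1C).

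The labelled cell type was checked against 10 markers of homeostatic microglia. Their summed level was 5629 to 5864 CPM in Protocol 3 Controls, and it lay between 1432 and 2540 CPM in the Controls of the other protocols. Siglech, a defining gene of mature microglia, stood at 445 CPM in Protocol 3 Controls and at 0.0929, 0.172, 0.0262 and 0.587 CPM in the Controls of 1A, 1B, 1C and 2. Tmem119 was at 60.0 CPM in Protocol 3 Controls against 1.24 to 4.70 CPM in the others. Siglech and Tmem119 were thus low in the cultured cells, while Csf1r stayed high in every group.

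Scavenger receptors form classes of unrelated structure that share an affinity for polyanionic ligands such as oxidised low density lipoprotein. Class A receptors (Msr1, Marco) are trimers with a collagen-like stem, class B receptors (Cd36, Scarb1) span the membrane at both ends and handle fatty acids and lipoprotein lipids, and Olr1 is a lectin-like receptor for oxidised lipoprotein. Cd163 clears complexes of haptoglobin and haemoglobin, Stab1 takes up the matrix protein SPARC and acetylated lipoprotein, Mrc1 is the mannose receptor, Lyve1 binds hyaluronan, and Cd5l is a secreted member of the scavenger receptor cysteine-rich family. In the healthy brain Mrc1, Cd163, Lyve1 and Stab1 are known as genes of perivascular and meningeal macrophages rather than of parenchymal microglia, and elsewhere in the body Lyve1 marks lymphatic endothelium.

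In GRCm38 coordinates, which the deposited positions of all 10 genes match in GENCODE M21, Msr1 lies on the minus strand at chr8:39581685-39642673, Marco on the minus strand at chr1:120474538-120505024, Cd36 on the minus strand at chr5:17781690-17888801 and Scarb1 on the minus strand at chr5:125277087-125341094. Olr1 and Cd163 share a chromosome, Olr1 on the minus strand at chr6:129485244-129507165 and Cd163 on the plus strand at chr6:124304656-124330527. Cd5l lies on the plus strand at chr3:87357881-87371073, Mrc1 on the plus strand at chr2:14229392-14332057, Stab1 on the minus strand at chr14:31139013-31168641 and Lyve1 on the minus strand at chr7:110850607-110863239. All are protein-coding. Mir511 lies within Mrc1 on the same strand, Gm42633 overlaps Scarb1 on the same strand and Nt5dc2 overlaps Stab1 on the opposite strand, and the strand setting of the counting is not given in the sources used here, so reads where these pairs overlap cannot be assigned with certainty.

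The sequences just upstream of 4 members are shown, for the 2 genes with the widest range of levels over the groups (Olr1, Marco) and 2 endocytic receptors of border macrophages (Mrc1, Stab1). They are the 250 bases before the RefSeq gene start in GRCm38.p6, read 5′ to 3′ on the strand of the gene, at chr6:129507166-129507415 for Olr1, chr1:120505025-120505274 for Marco, chr2:14229164-14229413 for Mrc1 and chr14:31168642-31168891 for Stab1. RefSeq entries matched 7 of the 10 genes (Msr1, Scarb1 and Lyve1 did not match). Capitals mark matches on either strand to TGANTCA, the letters bound by AP-1, and to GAGGAA or its complement TTCCTC, the core of the sites of PU.1, the myeloid lineage factor. The 2 motifs do not overlap each other in these windows.
Olr1: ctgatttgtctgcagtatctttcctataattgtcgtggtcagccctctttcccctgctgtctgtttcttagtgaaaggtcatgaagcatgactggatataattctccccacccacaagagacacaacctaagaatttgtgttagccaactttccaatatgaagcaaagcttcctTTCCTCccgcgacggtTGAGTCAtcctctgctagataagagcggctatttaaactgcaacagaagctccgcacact
Marco: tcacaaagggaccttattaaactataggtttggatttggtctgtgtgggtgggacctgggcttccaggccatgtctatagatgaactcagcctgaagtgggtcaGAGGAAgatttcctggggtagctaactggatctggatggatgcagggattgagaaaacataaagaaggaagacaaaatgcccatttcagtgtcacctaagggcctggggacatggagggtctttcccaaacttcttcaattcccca
Mrc1: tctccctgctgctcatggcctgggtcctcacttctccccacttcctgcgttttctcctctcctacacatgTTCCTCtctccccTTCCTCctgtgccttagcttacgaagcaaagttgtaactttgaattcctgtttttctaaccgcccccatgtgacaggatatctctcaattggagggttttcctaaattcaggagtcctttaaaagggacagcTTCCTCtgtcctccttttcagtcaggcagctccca
Stab1: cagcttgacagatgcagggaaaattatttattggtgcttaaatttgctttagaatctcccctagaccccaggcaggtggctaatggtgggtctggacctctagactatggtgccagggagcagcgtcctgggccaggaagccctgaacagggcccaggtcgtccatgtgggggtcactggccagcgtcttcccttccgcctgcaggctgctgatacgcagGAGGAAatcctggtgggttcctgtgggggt

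Among the 7 windows searched, TGANTCA was found in Olr1 alone, as TGAGTCA 60 to 54 bases upstream of the start, and 6.75% of 32851 windows of the same length over all genes hold it. GAGGAA or TTCCTC was found in 5 of 7, against 23.3% of all windows. It lay 76 to 71 bases upstream in Olr1, 146 to 141 in Marco, 66 to 61 in Cd5l, 30 to 25 in Stab1 and at 3 places in Mrc1 (180 to 175, 167 to 162 and 35 to 30). The start that RefSeq gives Cd36 lies inside the GENCODE gene, so its window is not upstream of the gene as placed above, and the last bases of the Mrc1 window also lie inside the GENCODE gene. Cd36 and Cd163 held neither, and neither the kappa B motif (7.25% of all windows) nor TATAAA (12.4%) was found in any of the 7. These are matches of letters in a fixed window, no binding was measured, and a window without a match says nothing about the factor.

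**Figure D1:**
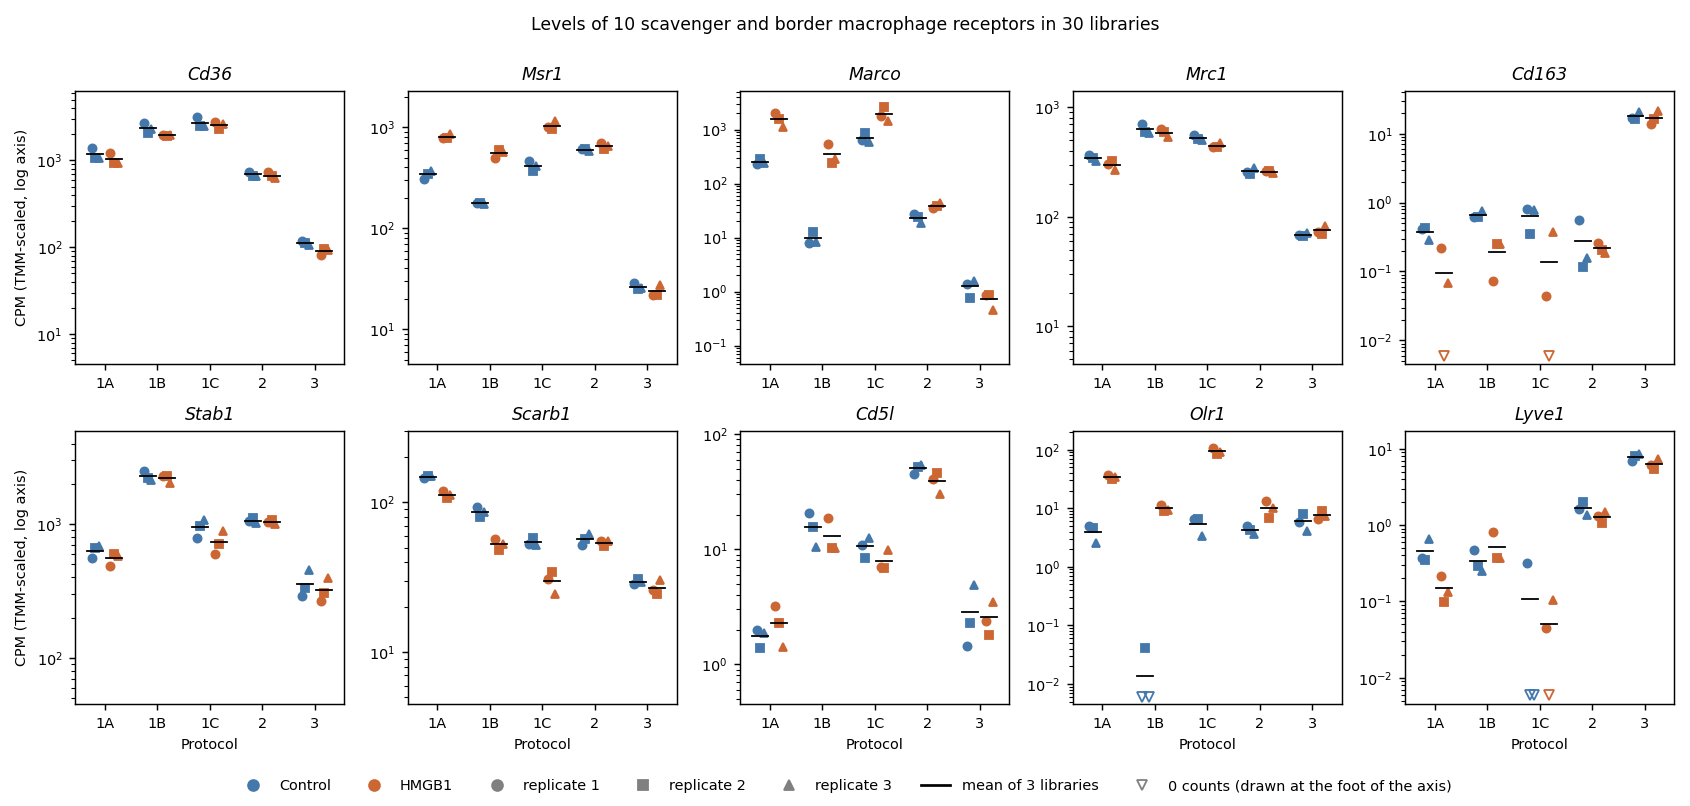
TMM-scaled CPM of the 10 genes (one panel each, log axis) in all 30 libraries, by protocol and treatment, one symbol per library. Open triangles at the foot of an axis are libraries with 0 counts. Msr1, Marco and Olr1 separate Control from HMGB1 in Protocols 1A, 1B and 1C, while Cd163 and Lyve1 are highest in the 6 libraries of Protocol 3.

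The 10 genes covered very different ranges over the 10 groups, as the plot of CPM by library shows. Between the highest and the lowest group mean lay a factor of 6829 for Olr1, 2705 for Marco, 189 for Cd163, 157 for Lyve1, 43.7 for Msr1, 30.3 for Cd36, 28.7 for Cd5l, 9.25 for Mrc1, 7.03 for Stab1 and 5.54 for Scarb1. The wide ranges of Olr1, Cd163 and Lyve1 rest on groups near 0 counts, and that of Marco on Protocol 3 with HMGB1, at 8 to 18 counts per library. For 5 of the 10 genes the lowest group mean was that of Protocol 3 with HMGB1 (Cd36, Msr1, Marco, Stab1 and Scarb1), and for Cd163 and Lyve1 the highest was that of Protocol 3 Control.

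**Figure D2:**
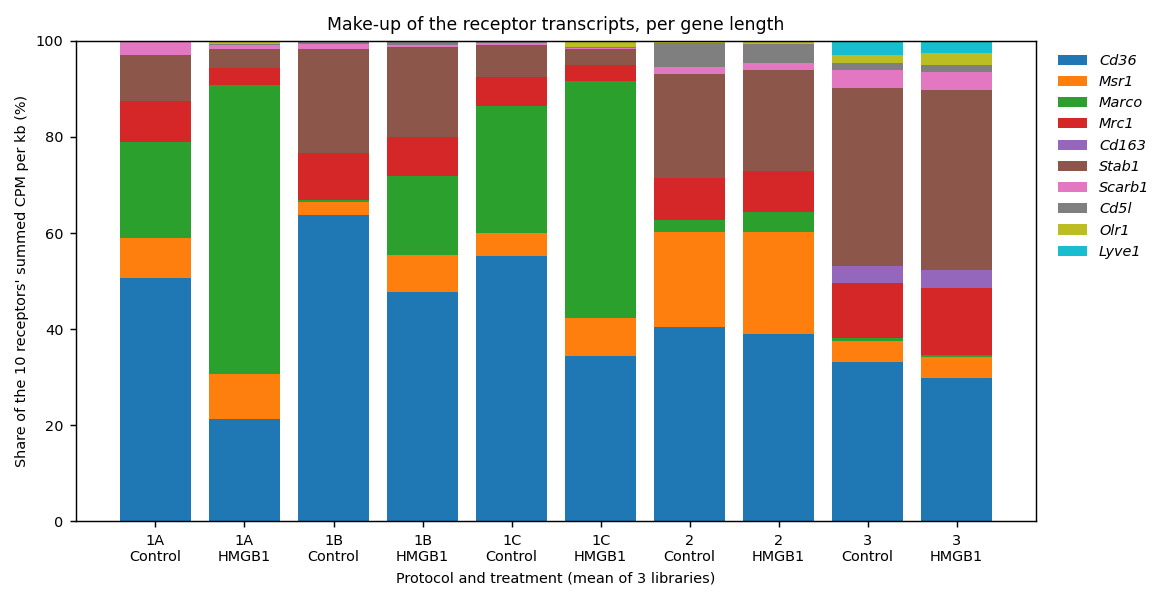
Share of each of the 10 genes in their summed level per length (CPM per kb of gene length, group means), one stacked bar per group, from 0 to 100%. Cd36 takes the largest share in 1A, 1B, 1C and 2 Controls, Stab1 in Protocol 3 and Marco in 1A and 1C with HMGB1.

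Per length of transcript, the composition of the set differed between protocols, as the bars of shares show. Cd36 made up 50.6% of the summed CPM per kb in 1A Controls, 63.7% in 1B, 55.2% in 1C and 40.4% in Protocol 2, and Stab1 led in Protocol 3 Controls with 37.0% against 33.1% for Cd36. Msr1 held 19.8% in Protocol 2 Controls and at most 8.34% in the other Controls. With HMGB1, Marco went from 20.1% to 60.2% in 1A, from 0.493% to 16.3% in 1B and from 26.4% to 49.2% in 1C, and the share of Cd36 in 1A with HMGB1 was 21.3%. The summed level per length was lowest in Protocol 3, 93.9 CPM per kb in Control and 84.4 with HMGB1. It was 477 and 479.6 in Protocol 2, 647 and 1357 in 1A, 1026 and 1141 in 1B and 1377 and 2068 in 1C.

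**Figure D3:**
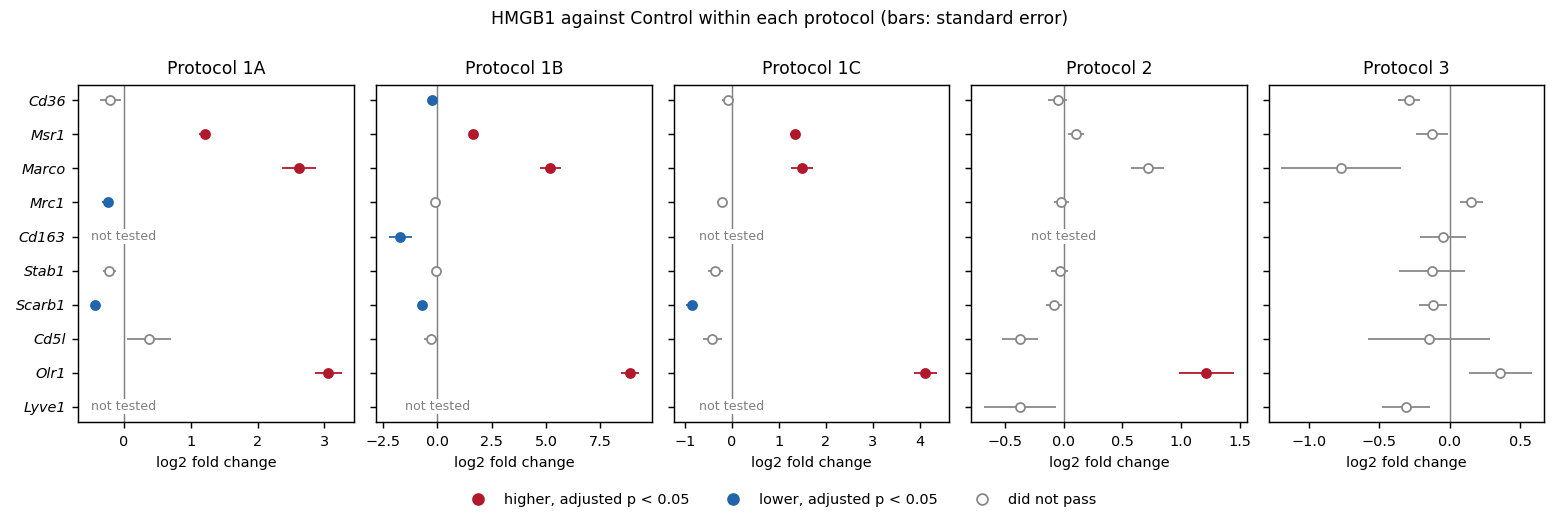
Log2 fold change (HMGB1 minus Control) of each gene in each protocol with its standard error, from the fit of the 6 libraries of the protocol. Marco, Msr1 and Olr1 lie above 0 in 1A, 1B and 1C, and in Protocol 3 no gene passed the test.

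HMGB1 raised Msr1, Marco and Olr1 in all 3 neonatal protocols and lowered Scarb1 there, as the plot of log2 fold changes by protocol shows. In 1A, 3 of 8 genes tested rose, with 29.7% of all genes tested called higher, and 2 fell (Mrc1 and Scarb1), with 31.6% called lower. In 1B, 3 of 9 rose against 29.8% of all genes, and 3 fell (Cd36, Cd163 and Scarb1) against 32%. In 1C, 3 of 8 rose against 28.4%, and Scarb1 alone fell against 31.8%. The shares of members called are near those of all genes, so the counts alone do not set these genes apart. Lyve1 in all 3, and Cd163 in 1A and 1C, had too few counts to be tested.

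The adult protocols gave few calls. In Protocol 2 only Olr1, of 9 genes tested, rose (1.21% of all genes higher), and 0 fell (0.283% lower). The unadjusted edgeR p was below 0.05 there for 3 members and for 1418 of all 15564 genes tested. In Protocol 3, 0 of 10 genes rose (0.123% of all genes) and 0 fell (0%) by edgeR. DESeq2 called 0 as well, but gave 1 of the 10 no adjusted p. The unadjusted edgeR p was below 0.05 for 1 member, Cd36, and for 806 of all 15401 genes tested. The median log2 fold change of the members tested was 0.083 (all genes -0.038) for 1A, -0.096 (-0.021) for 1B, -0.16 (-0.039) for 1C, -0.035 (0.00024) for Protocol 2 and -0.13 (-0.0095) for Protocol 3. With library totals as the scale, the calls on these genes were 3 higher and 4 lower in 1A, 3 and 5 in 1B and 3 and 5 in 1C, and all genes went from 4008 higher and 4258 lower to 2008 and 7747 in 1A, from 4049 and 4355 to 2080 and 7850 in 1B, and from 4069 and 4563 to 2134 and 8578 in 1C. The rises of Msr1, Marco and Olr1 and the fall of Scarb1 in these protocols passed under both scales.

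**Figure D4:**
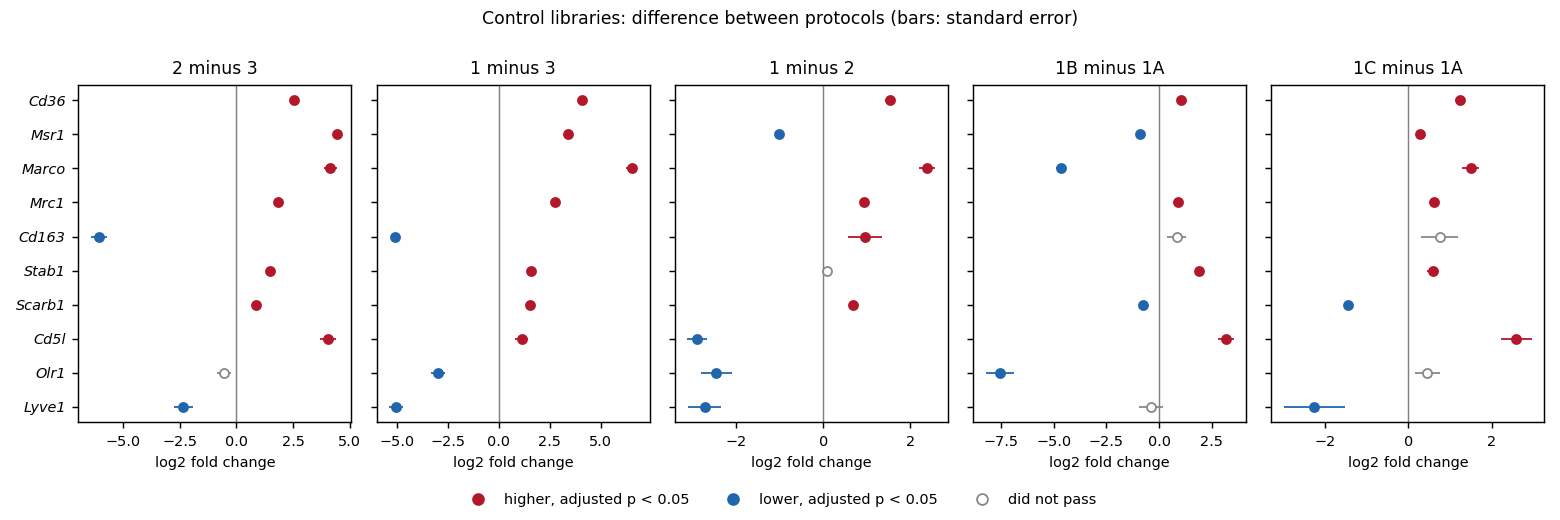
Log2 fold change of each gene between Control groups with its standard error, for 5 contrasts from the fit of all 15 Control libraries. Cd163 and Lyve1 lie below 0 in both contrasts with Protocol 3, and Cd36, Msr1, Marco, Mrc1, Stab1 and Scarb1 lie above 0.

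Untreated cells of the protocols differed in most of these genes, as the plot of Control contrasts shows. Against Protocol 3, Protocol 2 Controls were higher in 7 of 10 genes (40.1% of all genes) and lower in 2 (37.2%), and Protocol 1, the average over its 3 variants, was higher in 7 (37.3%) and lower in 3 (42.9%). The 7 higher genes were Cd36, Msr1, Marco, Mrc1, Stab1, Scarb1 and Cd5l in both contrasts, which share the Protocol 3 libraries. The median log2 difference of the members was 1.66 for Protocol 2 and 1.56 for Protocol 1, beside 0.076 and -0.12 over all genes. Protocol 1 was higher than Protocol 2 in 5 genes (24.6%) and lower in 4 (30.7%), with a median of 0.38 beside -0.023. Without GM-CSF (1B minus 1A), 4 genes were higher (18.2%) and 4 lower (12.6%), with a median of 0.23 beside 0.044, and after the longer culture (1C minus 1A) 6 were higher (13.1%) and 2 lower (7.91%), with a median of 0.60 beside 0.039. Library totals moved the median of all genes by 0.316 for Protocol 2 minus 3, 0.451 for Protocol 1 minus 3 and 0.135 for Protocol 1 minus 2. The calls over all genes went from 6347 higher and 7299 lower to 7925 and 5668 for Protocol 1 minus 3, from 4189 and 5228 to 5632 and 4341 for Protocol 1 minus 2, and from 2230 and 1348 to 1745 and 1860 for 1C minus 1A.

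Whether a response differed between protocols was tested as a difference of log2 fold changes in a fit of all 30 libraries. The response in Protocol 2 minus that in Protocol 1 was positive for Scarb1 (22.9% of all genes) and negative for Msr1, Marco and Olr1 (20.6%). For Protocol 3 minus Protocol 1 it was positive for Mrc1, Cd163 and Scarb1 (20.2%) and negative for Msr1, Marco and Olr1 (22.5%), with Cd163 below 1 CPM in Protocol 1. For Protocol 3 minus Protocol 2, 0 of 10 were positive (0.022%) or negative (0.346%) by edgeR and by DESeq2. The unadjusted edgeR p was below 0.05 for 1 of the 10 and for 1020 of all 18182 genes tested. The response in 1B exceeded that in 1A for Msr1, Marco and Olr1 (3.7%) and was smaller for 0 genes (3.21%), and in 1C it exceeded that in 1A for 0 genes (5.46%) and lay below it for Scarb1 (8.53%). Library totals moved the median of these differences over all genes by 0.506, 0.499 and -0.174 for Protocol 2 minus 1, Protocol 3 minus 1 and 1C minus 1A, and the calls over all genes from 4168 positive and 3754 negative to 8402 and 1915, from 3672 and 4094 to 7541 and 2019, and from 993 and 1551 to 708 and 3385. On that scale the difference for Cd36 between Protocols 3 and 1 turned from -0.13 ± 0.14, adjusted p = 0.49, to 0.37 ± 0.14, adjusted p = 0.0305. On that scale Cd36, Mrc1 (0.67 ± 0.098, adjusted p = 6.17e-07), Cd163 (2.07 ± 0.75, adjusted p = 0.0186) and Stab1 also passed for Protocol 2 minus Protocol 1. With the replicate number as a block, Cd163 (1.70 ± 0.69, adjusted p = 0.0426) and Stab1 passed for Protocol 2 minus Protocol 1, Scarb1 for 1B minus 1A (-0.31 ± 0.10, adjusted p = 0.0418) and Olr1 for 1C minus 1A (1.02 ± 0.31, adjusted p = 0.0322).

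Msr1 (scavenger receptor A), which binds modified lipoprotein and bacterial lipids, rose from 309.5, 346 and 371 CPM in 1A Controls to 776, 782 and 851 after treatment, a log2 fold change of 1.21 ± 0.076, adjusted p = 7.98e-09. In 1B it went from 179, 176 and 176 to 499, 599 and 566 (1.65 ± 0.076, adjusted p = 1.75e-08) and in 1C from 459.6, 370.4 and 410.0 to 998, 972 and 1152 (1.34 ± 0.12, adjusted p = 1.25e-06). Every HMGB1 library of these 3 protocols lay above every Control library of its protocol. Protocol 2 Controls, at 608, 606 and 588 CPM, were the highest untreated group, and with HMGB1 they held 691, 605 and 649 (0.10 ± 0.067, adjusted p = 0.769). Protocol 3 was the low end, with 28.4, 24.8 and 25.7 CPM in Control and 22.0, 21.7 and 27.6 with HMGB1 (-0.13 ± 0.12, adjusted p = 0.995), and in both adult protocols the treatments overlapped.

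Among Controls, Msr1 was higher in Protocol 2 than in Protocol 3 by 4.43 ± 0.098, adjusted p = 2.31e-18, and in Protocol 1 than in Protocol 3 by 3.42 ± 0.087, adjusted p = 3.94e-18. Protocol 1 lay below Protocol 2 (-1.01 ± 0.065, adjusted p = 1.39e-10), and 1B without GM-CSF lay below 1A (-0.91 ± 0.085, adjusted p = 7.83e-08). The higher level in 1C than in 1A (0.29 ± 0.084, adjusted p = 0.0175) was lost with library totals (adjusted p = 0.0541), without 1A Control replicate 1 (0.106) or 1C Control replicate 1 (0.0929) and in a fit of the compared groups alone (0.088). In the order of group means, Protocol 2 with HMGB1 and Protocol 2 Control overlapped, as did Protocol 2 Control and 1B with HMGB1, 1C and 1A Controls, and the 2 groups of Protocol 3, while the other neighbours did not. Relative to Protocol 1, the response was smaller in Protocol 2 (-1.29 ± 0.11, adjusted p = 7.24e-12) and in Protocol 3 (-1.55 ± 0.11, adjusted p = 4.66e-13). It was larger in 1B than in 1A by 0.42 ± 0.13, adjusted p = 0.0447, a call that was lost when any 1 of 13 libraries was left out (adjusted p from 0.0504 to 0.138).

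Marco, the other class A receptor of the set, binds bacteria and particles and is best known on alveolar and marginal zone macrophages. In 1A it rose from 233, 281 and 237 CPM to 2005, 1585 and 1129 (2.62 ± 0.25, adjusted p = 0.000637), a 6.17-fold difference of fitted levels. In 1B, where Controls held 8.01, 12.8 and 8.43 CPM, it reached 549, 239.9 and 287 with HMGB1 (5.19 ± 0.48, adjusted p = 0.000483). The 1C Controls were already high, at 654, 854 and 595, and rose to 1813, 2633 and 1430.1 (1.49 ± 0.24, adjusted p = 0.000878). No HMGB1 library overlapped a Control library in these protocols, and the treated libraries of 1B differed most among themselves, with a coefficient of variation of 46.5%.

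In Protocol 2, Marco went from 27.4, 24.3 and 18.7 to 35.4, 37.7 and 43.1 CPM, and its groups did not overlap, but it missed the threshold with edgeR (0.72 ± 0.14, adjusted p = 0.059). It passed with the DESeq2 Wald test (adjusted p = 3.82e-05) and without Control replicate 1 (0.00819) or Control replicate 3 (0.0416). Protocol 3 held 1.38, 0.773 and 1.57 CPM in Control and 0.859, 0.856 and 0.457 with HMGB1 (-0.77 ± 0.42, adjusted p = 0.995). Marco was therefore near the floor in the acutely isolated cells under both conditions. Against Protocol 3 Controls, those of Protocol 2 were higher by 4.14 ± 0.30, adjusted p = 3.53e-08, and those of Protocol 1 by 6.52 ± 0.28, adjusted p = 1.34e-10. Protocol 1 exceeded Protocol 2 by 2.38 ± 0.19, adjusted p = 4.15e-07.

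Marco differed widely between the untreated neonatal variants. Its level in 1B lay below 1A (-4.64 ± 0.24, adjusted p = 2.14e-08), and that in 1C lay above 1A by 1.5 ± 0.20, adjusted p = 0.000195. Of 7 markers of alveolar macrophages and of the GM-CSF response, Chil3 stood at 71.3 CPM in 1A Controls, 0.0688 in 1B and 115 in 1C, against 1.15 in Protocol 2 and 42.3 in Protocol 3. The list summed to 1605 to 1880.2 CPM in 1A Controls, 1319.5 to 1514 in 1B, 1534 to 1686 in 1C, 1518 to 1589 in Protocol 2 and 128 to 179 in Protocol 3, most of it Fabp5. Car4 was at 0 in the Controls of 1A, 1B and 1C, and Ear2 at 0 in those of 1B. The part of these genes in the level of Marco was not tested. By group means, 1C and 1A with HMGB1 overlapped, as did 1B with HMGB1 and 1A Control, and the 2 groups of Protocol 3. The response of Marco was smaller in Protocol 2 than in Protocol 1 (-2.39 ± 0.34, adjusted p = 4.63e-06), smaller in Protocol 3 (-3.90 ± 0.69, adjusted p = 7.31e-05) and larger in 1B than in 1A by 2.54 ± 0.41, adjusted p = 0.000352. Between 1C and 1A it differed by -1.17 ± 0.39, adjusted p = 0.0501, which did not pass, but it passed with library totals (-1.34 ± 0.41, adjusted p = 0.0219), with the DESeq2 Wald test (0.0453), without the filter on low counts (-1.15 ± 0.13, 6.42e-16) and when 1A HMGB1 replicate 3 (0.0283), 1B HMGB1 replicate 1 (0.0186) or 2 (0.0374), 1C Control replicate 3 (0.0479) or 1C HMGB1 replicate 2 (0.0199) was left out. Without the filter the value was nearly the same, and the far smaller adjusted p came with a smaller standard error.

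Cd36, the class B receptor that takes up long-chain fatty acids and oxidised lipoprotein, was the most abundant of the set per length in the Controls of Protocols 1 and 2. Its Controls held 1392, 1060.1 and 1069.7 CPM in 1A, 2703, 2062 and 2276 in 1B and 3182, 2494 and 2519 in 1C. Protocol 2 Controls held 742, 668 and 665 and Protocol 3 Controls 117, 113 and 105. Every Protocol 3 library lay below every library of the other protocols. The excess over Protocol 3 was 4.08 ± 0.13, adjusted p = 3.79e-16, for Protocol 1 and 2.55 ± 0.13, adjusted p = 7.95e-13, for Protocol 2, and Protocol 1 exceeded Protocol 2 by 1.53 ± 0.11, adjusted p = 9.36e-10. Both 1B (1.03 ± 0.12, adjusted p = 2.49e-06) and 1C (1.23 ± 0.12, adjusted p = 9.53e-07) lay above 1A.

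With HMGB1, Cd36 held 1232, 941 and 940.2 CPM in 1A (-0.20 ± 0.15, adjusted p = 0.299), 1954, 1935 and 1988 in 1B and 2758, 2301 and 2597 in 1C (-0.091 ± 0.13, adjusted p = 0.563). It fell in 1B (-0.25 ± 0.089, adjusted p = 0.0299), where the groups did not overlap. That call was lost with DESeq2 size factors (adjusted p = 0.0649), in a fit of all 30 libraries (0.0629) and when Control replicate 1 (0.109), HMGB1 replicate 1 (0.0524) or HMGB1 replicate 3 (0.0593) was left out. With library totals Cd36 fell in 1A (-0.63 ± 0.17, adjusted p = 0.0206) and 1C (-0.72 ± 0.12, adjusted p = 0.000131) too, so whether it was called in 1A and 1C depends on the scale. With TMM scaling it was also called in 1A without HMGB1 replicate 1 (-0.34 ± 0.12, adjusted p = 0.0413). The same held there with the replicate number as a block (-0.20 ± 0.062, adjusted p = 0.00885). Protocol 2 did not change detectably, from 692 ± 43.5 to 671 ± 58.8 CPM (-0.051 ± 0.08, adjusted p = 0.956).

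In Protocol 3, Cd36 with HMGB1 was 82.6, 95.0 and 93.0 CPM, below each of the 3 Controls. The log2 fold change was -0.29 ± 0.08, adjusted p = 0.416 (unadjusted 0.00294). With the replicate number as a block, which pairs each treated library with its like-numbered Control, it was -0.29 ± 0.059, adjusted p = 0.00108, and Cd36 was then the only member called in this protocol. By group means, 1C Control and 1C with HMGB1 overlapped, as did 1C with HMGB1 and 1B Control, the 2 groups of 1A and the 2 groups of Protocol 2. The differences between responses did not pass for Cd36 in any of the 5 contrasts (adjusted p from 0.461 to 0.99). With library totals the value for Protocol 2 minus Protocol 1 was 0.64 ± 0.14 (adjusted p = 0.000335) against 0.13 ± 0.13 with TMM.

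Scarb1, the receptor for high density lipoprotein that moves cholesterol esters into and out of cells, ran against the other class B receptor within Protocol 1. Its Controls ran from high to low in the order 1A (146, 150.5 and 151 CPM), 1B (93.2, 80.4 and 87.0) and 1C (52.8, 58.3 and 51.8). Protocol 2 Controls held 52.2, 57.4 and 61.3 and Protocol 3 Controls 28.4, 30.9 and 29.6. The 3 neonatal Controls did not overlap each other. Relative to 1A, 1B was lower (-0.74 ± 0.075, adjusted p = 2.32e-07) and 1C (-1.44 ± 0.076, adjusted p = 1.33e-10). Protocol 1 as a mean lay above Protocol 3 (1.53 ± 0.068, adjusted p = 3.01e-14) and Protocol 2 (0.67 ± 0.064, adjusted p = 2.81e-08), and Protocol 2 above Protocol 3 (0.86 ± 0.077, adjusted p = 3.25e-09).

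HMGB1 lowered Scarb1 to 119, 107 and 112 CPM in 1A (-0.43 ± 0.064, adjusted p = 4.83e-05), to 56.8, 48.3 and 53.1 in 1B (-0.71 ± 0.077, adjusted p = 1.36e-05) and to 30.8, 34.5 and 24.3 in 1C (-0.86 ± 0.12, adjusted p = 9.31e-05). In each of these protocols all 3 HMGB1 libraries lay below all 3 Controls. Protocol 2 with HMGB1 held 55.1, 51.3 and 55.3 (-0.085 ± 0.068, adjusted p = 0.846) and Protocol 3 26.0, 24.5 and 30.2 (-0.12 ± 0.10, adjusted p = 0.995), both overlapping their Controls. The fall was larger in Protocol 1 than in Protocol 2 (difference 0.58 ± 0.11, adjusted p = 2.89e-05) and than in Protocol 3 (0.53 ± 0.11, adjusted p = 0.00022), but with 1A alone as Protocol 1 these differences were 0.33 ± 0.13, adjusted p = 0.0501, and 0.27 ± 0.13, adjusted p = 0.125. The fall in 1C exceeded that in 1A (-0.46 ± 0.13, adjusted p = 0.0163), which was lost without 1A HMGB1 replicate 1 (0.0642), 1C Control replicate 2 (0.0506) or 1C HMGB1 replicate 3 (0.0844). From Protocol 2 Control down to 1B with HMGB1, the neighbours in the order of group means overlapped, as did 1C with HMGB1 and Protocol 3 Control, and the 2 groups of Protocol 3.

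Olr1 (LOX-1), the lectin-like receptor for oxidised lipoprotein, was scarce in untreated cells and gave the largest fitted rise of the set in each of the 3 neonatal protocols. It went from 4.91, 4.55 and 2.54 to 37.4, 31.3 and 34.5 CPM in 1A (3.06 ± 0.20, adjusted p = 7.28e-07) and from 6.51, 6.55 and 3.35 to 106, 82.9 and 93.1 in 1C (4.12 ± 0.24, adjusted p = 2.96e-06). In 1B, Controls held 0, 1 and 0 counts, where 3 counts would be 0.141, 0.124 and 0.152 CPM, and HMGB1 libraries held 11.6, 9.15 and 9.24 CPM. Over the group that is 529 against 1 count, a ratio of 639 with a 95% counting interval from 114 to 25278. The fitted log2 fold change of 8.85 ± 0.43 (adjusted p = 2.5e-08) depends on the prior count of the fit and is no bound.

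In Protocol 2, Olr1 rose from 4.96, 4.29 and 3.66 to 13.4, 6.71 and 10.2 CPM (1.22 ± 0.24, adjusted p = 0.0353), the only member called there, and the groups did not overlap. The call was lost with library totals (adjusted p = 0.054) and without Control replicate 1 (0.0604), Control replicate 2 (0.247), Control replicate 3 (0.221) or HMGB1 replicate 3 (0.136). Protocol 3 held 5.78, 7.88 and 4.17 CPM in Control and 6.44, 8.95 and 7.26 with HMGB1 (0.36 ± 0.22, adjusted p = 0.995), with overlap. Untreated Olr1 thus lay between 2.54 and 7.88 CPM in 1A, 1C, 2 and 3, and 1B stood apart at the floor. Protocol 3 cells, like those of 1B, were not given GM-CSF. The order of group means had Protocol 2 and 1B with HMGB1 overlapping, and all neighbours from Protocol 3 with HMGB1 down to 1A Control.

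Among Controls, 1A held 291 counts of Olr1 against 1 in 1B, a ratio of 266 with a 95% counting interval from 47.4 to 10546 (fitted difference -7.57 ± 0.67, adjusted p = 4.98e-08). Protocol 1 as a mean was lower than Protocol 3 (-3.0 ± 0.34, adjusted p = 9.13e-08) and Protocol 2 (-2.46 ± 0.36, adjusted p = 8.69e-06), but both values include 1B. With 1A alone they were -0.63 ± 0.30, adjusted p = 0.0635, and -0.084 ± 0.30, adjusted p = 0.837. Protocol 2 and Protocol 3 Controls were not told apart (-0.54 ± 0.30, adjusted p = 0.102), although Protocol 2 was lower without Protocol 3 Control replicate 3 (-0.74 ± 0.31, adjusted p = 0.0387) and with the replicate number, which these Controls only share as a number, as a block (-0.52 ± 0.22, adjusted p = 0.0379), and 1C and 1A were not told apart either (0.46 ± 0.30, adjusted p = 0.324). The response was smaller in Protocol 2 than in Protocol 1 (-4.13 ± 0.43, adjusted p = 1.55e-08), smaller in Protocol 3 (-5.02 ± 0.42, adjusted p = 4.09e-10), and larger in 1B than in 1A by 5.79 ± 1.00, adjusted p = 0.000482, all of which rest in part on the fitted value for 1B. Between 1C and 1A it was 1.02 ± 0.36, adjusted p = 0.0644, which passed with the DESeq2 Wald test (0.0197), without the filter on low counts (1.04 ± 0.20, 1.55e-05, a like value with a smaller standard error) and when 1A Control replicate 3 (0.0232) or Protocol 2 HMGB1 replicate 1 (0.0468) or 2 (0.0396) was left out. The AP-1 and PU.1 letters in its upstream window are those printed above.

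Cd5l (AIM), a secreted protein that binds oxidised lipids and debris, peaked in cultured adult cells. Protocol 2 Controls held 45.3, 52.3 and 53.7 CPM, against 2.01, 1.39 and 1.88 in 1A, 20.6, 15.8 and 10.5 in 1B and 10.8, 8.40 and 12.6 in 1C. Protocol 3 Controls held 1.43, 2.27 and 4.85, the highest in replicate 3. All 3 Protocol 2 Controls lay above every other Control library. Protocol 2 exceeded Protocol 3 by 4.03 ± 0.35, adjusted p = 2.56e-07, and Protocol 1 lay below Protocol 2 (-2.89 ± 0.23, adjusted p = 2.94e-07). Protocol 1 as a mean lay above Protocol 3 (1.13 ± 0.32, adjusted p = 0.0056), but 1A alone lay below it without passing (-0.79 ± 0.42, adjusted p = 0.106), so the direction depends on the variant. Relative to 1A, Cd5l was higher in 1B (3.18 ± 0.37, adjusted p = 3.38e-05) and in 1C (2.59 ± 0.37, adjusted p = 0.000363). The summed level of 6 fibroblast markers was also highest in Protocol 2 Controls, 176 to 264 CPM against 2.00 to 2.66 in Protocol 3. Within Protocol 1 it was 1.73 to 3.05 CPM in 1A, 27.2 to 88.8 in 1B and 47.0 to 95.4 in 1C Controls, with Lum at 0 in 1A. Like Cd5l, the sum was higher in 1B and 1C than in 1A. Between 1B and 1C the libraries overlapped and the order of means differed. The sum had means of 52.7 CPM in 1B and 70.7 in 1C, and Cd5l of 15.6 and 10.6. The part of these markers in Cd5l was not tested.

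With HMGB1 no change of Cd5l passed in any protocol: it held 3.20, 2.29 and 1.41 CPM in 1A (0.37 ± 0.33, adjusted p = 0.349), 18.6, 10.2 and 10.2 in 1B (-0.28 ± 0.32, adjusted p = 0.496), 6.99, 6.88 and 9.79 in 1C (-0.42 ± 0.20, adjusted p = 0.0883), 40.5, 46.2 and 30.4 in Protocol 2 (-0.37 ± 0.15, adjusted p = 0.535) and 2.39, 1.79 and 3.49 in Protocol 3 (-0.15 ± 0.43, adjusted p = 0.995). With library totals it fell in 1C (-1.05 ± 0.19, adjusted p = 0.00029). Without the filter on low counts it was called lower in Protocol 2 (-0.37 ± 0.079, adjusted p = 0.000421) and in 1C (-0.43 ± 0.18, adjusted p = 0.0464). Without 1C Control replicate 2 the adjusted p in 1C was 0.0343, and without 1C HMGB1 replicate 3 it was 0.0272. The replicate number as a block also gave a fall of Cd5l in 1C that passed (-0.42 ± 0.153, adjusted p = 0.031). Of the 9 pairs of neighbours by group mean, 7 overlapped; the exceptions were Protocol 2 with HMGB1 against 1B Control, and 1C with HMGB1 against Protocol 3 Control.

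Mrc1, the mannose receptor CD206, is an endocytic receptor for mannosylated glycoproteins and a standard marker of border macrophages, yet it was lowest in the acutely isolated cells. Controls held 367, 347 and 326 CPM in 1A, 712, 599 and 588 in 1B and 555, 517 and 499 in 1C. Protocol 2 held 255, 247 and 279 and Protocol 3 67.7, 66.5 and 71.0. No Control group overlapped another. Protocol 1 exceeded Protocol 3 by 2.78 ± 0.08, adjusted p = 2.73e-17, and Protocol 2 exceeded it by 1.84 ± 0.085, adjusted p = 8.06e-14. Protocol 1 lay above Protocol 2 (0.93 ± 0.07, adjusted p = 1.28e-09), and both 1B (0.90 ± 0.082, adjusted p = 5.99e-08) and 1C (0.61 ± 0.082, adjusted p = 2.07e-05) lay above 1A.

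After HMGB1, Mrc1 fell slightly in 1A, to 304, 326 and 265 CPM (-0.24 ± 0.08, adjusted p = 0.0176). This call was lost without Control replicate 1 (adjusted p = 0.0799), Control replicate 2 (0.0579) or, among treated libraries, HMGB1 replicate 3 (0.126). In 1B it held 634, 592 and 541 (-0.096 ± 0.086, adjusted p = 0.361) and in 1C 433, 439 and 471 (-0.22 ± 0.093, adjusted p = 0.0603), which did not pass, although the 1C groups did not overlap. With library totals Mrc1 fell in 1B (-0.57 ± 0.073, adjusted p = 3.53e-05) and 1C (-0.85 ± 0.085, adjusted p = 2.54e-06). With TMM scaling it also passed in 1C with the replicate number as a block (-0.22 ± 0.086, adjusted p = 0.0424). The fit of all 30 libraries called it there too (-0.23 ± 0.084, adjusted p = 0.0223). Its call thus depends on the scale in 1B, and on both scale and model in 1C. In Protocol 2 it stood at 257 ± 6.33 CPM against 260.4 ± 16.9 (-0.023 ± 0.064, adjusted p = 0.976), and in Protocol 3 at 72.3, 70.4 and 83.0 (0.15 ± 0.084, adjusted p = 0.995). The response in Protocol 3 lay above that in Protocol 1 by 0.32 ± 0.099, adjusted p = 0.00887, which was lost without Protocol 3 HMGB1 replicate 3 (0.24 ± 0.10, adjusted p = 0.0629). By group means, the Control and HMGB1 groups of 1B, 1A, 2 and 3 overlapped within each protocol, as did 1B with HMGB1 and 1C Control, and 1A with HMGB1 and Protocol 2 Control.

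Stab1 (stabilin-1) was high in every group and, per length, led the set in Protocol 3. Protocol 3 Controls held 288, 330.5 and 454 CPM and HMGB1 libraries 268, 308 and 397 (-0.13 ± 0.24, adjusted p = 0.995), replicate 3 being the highest in both. The 1B Controls held 2499, 2208 and 2129.8, the highest group, and 1A Controls 554, 663 and 681. In 1C it was 793, 973 and 1068 and in Protocol 2 1058, 1113 and 1016. Without GM-CSF, Stab1 was thus higher than in 1A by 1.88 ± 0.14, adjusted p = 4.27e-08, and after the longer culture by 0.59 ± 0.14, adjusted p = 0.00581. Both Protocol 1 (1.58 ± 0.13, adjusted p = 3.39e-09) and Protocol 2 (1.49 ± 0.14, adjusted p = 4.95e-08) exceeded Protocol 3. Protocol 1 and Protocol 2 were not told apart (0.092 ± 0.11, adjusted p = 0.524), but 1A alone lay below Protocol 2 (-0.73 ± 0.14, adjusted p = 0.000323), the opposite sign.

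No response of Stab1 passed: with HMGB1 it held 484, 601 and 575 CPM in 1A (-0.22 ± 0.095, adjusted p = 0.0658), 2280.2, 2289 and 2016 in 1B (-0.047 ± 0.083, adjusted p = 0.65), 597, 713 and 892 in 1C (-0.36 ± 0.15, adjusted p = 0.0647) and 1044, 1079 and 1001 in Protocol 2 (-0.035 ± 0.071, adjusted p = 0.963). Library totals turned the neonatal values into falls that passed: -0.64 ± 0.095 in 1A (adjusted p = 0.000135), -0.52 ± 0.062 in 1B (2.15e-05) and -0.996 ± 0.14 in 1C (4.78e-05). With TMM scaling, leaving out Control replicate 1 made it pass in 1A (adjusted p = 0.0155), and leaving out Control replicate 1 (0.0244) or HMGB1 replicate 3 (0.00988) made it pass in 1C. On that scale the replicate number as a block gave falls that passed in 1A (-0.22 ± 0.063, adjusted p = 0.00588) and 1C (-0.37 ± 0.085, 0.00242). So did the fit without the filter on low counts, in 1A (-0.23 ± 0.0725, adjusted p = 0.00577) and 1C (-0.37 ± 0.103, 0.00121). Only 2 steps in its order of group means were free of overlap, 1B with HMGB1 against Protocol 2 Control and 1A with HMGB1 against Protocol 3 Control. The difference between responses did not pass for Stab1 in any of the 5 contrasts (adjusted p of 0.48, 0.855, 1, 0.846 and 0.696). For Protocol 2 minus Protocol 1 it passed with the replicate number as a block (0.18 ± 0.061, adjusted p = 0.0168) and with library totals (0.68 ± 0.19, adjusted p = 0.00355), and for Protocol 3 minus Protocol 1 with library totals (0.56 ± 0.19, adjusted p = 0.0157).

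Cd163, the haemoglobin scavenger, was highest in the acutely isolated cells. Protocol 3 Controls held 17.1, 16.2 and 20.5 CPM and HMGB1 libraries 13.9, 16.5 and 21.1 (-0.049 ± 0.16, adjusted p = 0.995). The other Controls held 0.409, 0.433 and 0.282 in 1A, 0.613, 0.619 and 0.762 in 1B and 0.8, 0.353 and 0.785 in 1C. In Protocol 2 they held 0.56, 0.115 and 0.158. No library outside Protocol 3 reached 1 CPM. Relative to Protocol 3, Cd163 was lower in Protocol 2 (-6.05 ± 0.36, adjusted p = 4.79e-12) and in Protocol 1 (-5.09 ± 0.22, adjusted p = 1.97e-14). Protocol 1 exceeded Protocol 2 by 0.97 ± 0.39, adjusted p = 0.0413, at levels below 1 CPM, and that call was lost in 12 alternatives, among them 1A alone (0.44 ± 0.49, adjusted p = 0.479) and Protocol 2 Controls without replicate 2 (0.239) or replicate 3 (0.199).

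In 1B, Cd163 fell from 0.613, 0.619 and 0.762 to 0.0729, 0.247 and 0.25 CPM (-1.70 ± 0.55, adjusted p = 0.0201), from 13, 15 and 15 to 1, 4 and 6 counts. The call was lost with the DESeq2 Wald test (adjusted p = 0.0611), without the filter on low counts (0.0541) and when Control replicate 2 (0.0545), Control replicate 3 (0.0655) or HMGB1 replicate 1 (0.0853) was left out. HMGB1 libraries of 1A held 0.217, 0 and 0.0669 CPM and those of 1C 0.0445, 0 and 0.371, too few counts for a test. Those of Protocol 2 held 0.263, 0.206 and 0.185, which was not tested for the same reason. The response in Protocol 3 exceeded that in Protocol 1 by 1.87 ± 0.49, adjusted p = 0.00214, at Protocol 1 levels below 1 CPM, and with 1A alone it did not pass (1.90 ± 0.82, adjusted p = 0.0767). For Protocol 2 minus Protocol 1 it was 1.58 ± 0.74, adjusted p = 0.0839, which passed with the DESeq2 Wald test (0.0301), without the filter on low counts (0.0351) and when 1A HMGB1 replicate 1 (0.0301), 1C HMGB1 replicate 3 (0.0106) or Protocol 2 Control replicate 1 (0.00901) was left out. Both differences come from the fit of 30 libraries, which Cd163 entered through groups with more counts. They include the HMGB1 groups of 1A and 1C, with 5 and 8 counts in all, so they cannot show a response in those protocols. All neighbours in the order of Cd163 group means overlapped except Protocol 3 with HMGB1 against 1B Control.

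Lyve1 was also highest in Protocol 3, at a lower level than Cd163, but its order over the other groups differed. Protocol 3 Controls held 7.01, 8.02 and 8.63 CPM and HMGB1 libraries 6.11, 5.37 and 7.31 (-0.31 ± 0.17, adjusted p = 0.995). Protocol 2 held 1.64, 1.99 and 1.34 and, with HMGB1, 1.31, 1.06 and 1.48 (-0.38 ± 0.31, adjusted p = 0.849). Neonatal Controls held 0.372, 0.347 and 0.659 in 1A, 0.471, 0.289 and 0.254 in 1B and 0.32, 0 and 0 in 1C, where 2 libraries had 0 counts. With HMGB1 it was 0.217, 0.0973 and 0.134 in 1A, 0.802, 0.371 and 0.374 in 1B and 0.0445, 0 and 0.106 in 1C, too few counts for a test. Cultured adult cells were therefore between the acutely isolated and the neonatal cells: Protocol 2 lay below Protocol 3 (-2.33 ± 0.40, adjusted p = 2.53e-05), and Protocol 1 lay below Protocol 2 (-2.72 ± 0.39, adjusted p = 5.88e-06) and below Protocol 3 (-5.05 ± 0.34, adjusted p = 2.35e-11). The lower level in 1C than in 1A (-2.25 ± 0.73, adjusted p = 0.0332) was lost without 1A Control replicate 3 (adjusted p = 0.113), 1C Control replicate 2 (0.129) or 1C Control replicate 3 (0.133). In 1C, 3 counts with HMGB1 stood against 6 in Control, a ratio of 0.585 with a 95% counting interval from 0.0946 to 2.74. Treated and untreated groups of Protocol 3 and of Protocol 2 overlapped, as did the neighbours 1B with HMGB1 and 1A Control, 1A and 1B Controls, 1A with HMGB1 and 1C Control, and the 2 groups of 1C.

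In bulk samples fewer cells of a type and less RNA per cell cannot be told apart, so marker levels are given beside Cd163 and Lyve1. Of 4 lymphatic endothelial markers, Ccl21a had 0 counts in every group, and the summed level was 30.8 to 38.4 CPM in Protocol 3 Controls, 53.7 to 64.8 in Protocol 2 and between 7.80 and 16.7 in the neonatal Controls. Prox1 was at 25.6 CPM in Protocol 3 Controls and between 3.15 and 6.84 in the others. The 10 endothelial markers summed to 169 to 201 CPM in Protocol 3, 173 to 183 in Protocol 2, 151 to 179.7 in 1A, 91.3 to 104 in 1B and 109 to 134 in 1C, with Cldn5 at 0 in the 3 neonatal Controls and Vwf a large part of the sum there. All 8 neutrophil markers were detected in Protocol 3 Controls, with a sum of 348 to 737 CPM against at most 60.8 in the other Controls, where Retnlg was at 0. Their part in these genes was not tested.

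**Figure D5:**
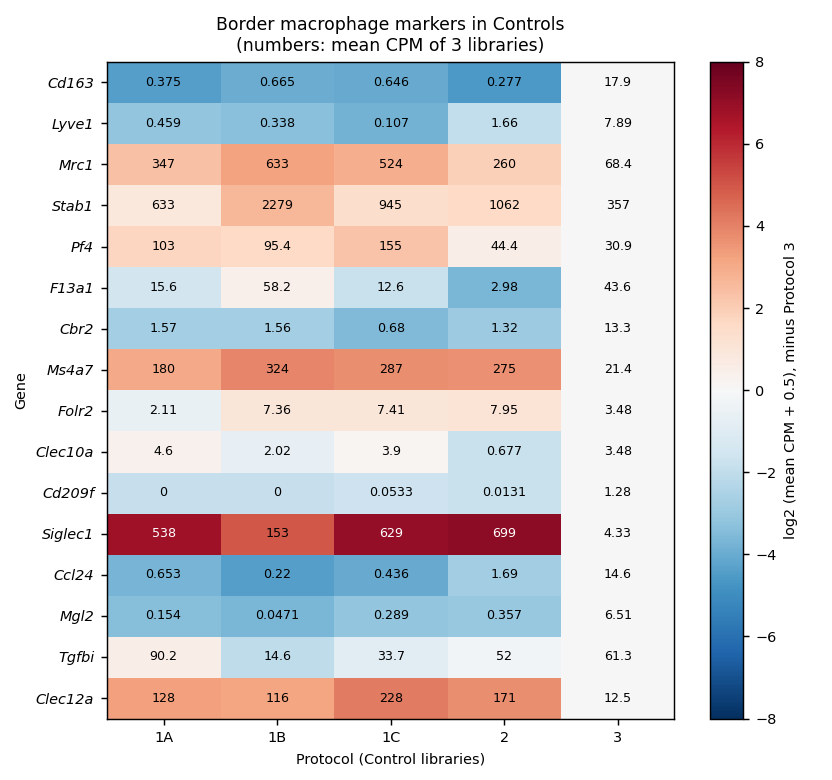
Log2 of mean Control CPM plus 0.5, minus that of Protocol 3, for the members Cd163, Lyve1, Mrc1 and Stab1 and 12 other border macrophage markers (rows) in the 5 Control groups (columns), with the mean CPM printed in each cell. Cbr2, Ccl24, Mgl2, Cd163 and Lyve1 are highest in Protocol 3, whereas Mrc1, Siglec1, Ms4a7 and Clec12a are higher in every cultured group.

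Other border macrophage markers were called in both directions, as the heatmap of Control levels shows. Against Protocol 3, 5 of 12 other markers were higher and 6 lower in Protocol 2 (40.1% and 37.2% of all genes), and 4 were higher and 6 lower in Protocol 1 (37.3% and 42.9%). With 12 markers these counts are near the shares of all genes. Cbr2, a carbonyl reductase, stood at 13.3 CPM in Protocol 3 and 1.32 in Protocol 2 (-3.42 ± 0.27, adjusted p = 4.54e-10), and Mgl2 was at 6.51 and 0.357. Ms4a7, a membrane protein of macrophages, ran the other way, from 21.4 CPM in Protocol 3 to 275 in Protocol 2 (3.60 ± 0.12, adjusted p = 3.04e-15), as did Clec12a (3.69 ± 0.14, adjusted p = 1.22e-13). Siglec1 was at 4.33 CPM in Protocol 3 and at 538, 153, 629 and 699 in 1A, 1B, 1C and 2. Pf4, Clec10a and F13a1 were higher in Protocol 1 than in Protocol 2 (1.40, 2.31 and 2.94 on the log2 scale), among 3 higher and 5 lower of 12 (24.6% and 30.7% of all genes).

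HMGB1 raised Ms4a7 in 1A (0.54 ± 0.088, adjusted p = 0.000148), 1B (0.83 ± 0.078, adjusted p = 5.14e-06) and 1C (0.80 ± 0.13, adjusted p = 0.000173). Of the other border markers tested, 3 of 10 rose and 2 fell in 1A, 4 of 9 rose and 0 fell in 1B, and 3 of 9 rose and 1 fell in 1C (of all genes 29.7% and 31.6%, 29.8% and 32%, and 28.4% and 31.8%). In Protocol 2, 0 of 11 passed by edgeR, and 0 had an unadjusted p below 0.05 (1418 of 15564 over all genes). DESeq2 called 0 there, but gave 2 no adjusted p. In Protocol 3, 0 of 12 passed by edgeR, and 1 had an unadjusted p below 0.05 (806 of 15401 over all genes), Pf4, which DESeq2 called. The falls were Clec10a and Tgfbi in 1A and Tgfbi in 1C. Beside the rises of Msr1, Marco and Olr1, the 6 monocyte markers summed to 416 to 482 CPM in 1A Controls and 748 to 820.4 with HMGB1, 186 to 288 and 381 to 437 in 1B and 506 to 619 and 935 to 1079 in 1C, mainly Fn1, while Plac8 was at 0 in 1A under both conditions and Ccr2 went from 33.0 to 3.58 CPM there. The lymphatic endothelial markers also had higher sums with HMGB1, in every treated library than in any Control of its protocol, with means of 13.9 CPM in Control and 34.2 with HMGB1 in 1A, 9.36 and 17.96 in 1B and 15.4 and 51.7 in 1C, mostly Pdpn after treatment, with Ccl21a at 0. The 10 endothelial markers went from 109 to 134 to 257 to 339 CPM in 1C, where Cldn5 was at 0 under both conditions, from 151 to 179.7 to 169 to 195 in 1A and from 91.3 to 104 to 101 to 121 in 1B. The 6 astrocyte markers summed to between 15.4 and 85.9 CPM over all groups. The 6 lymphocyte markers summed to at most 51.3 CPM, mostly Cd4, and Cd3e and Cd3g, which define T cells, were at 0 outside Protocol 3 Controls. The part of other cells in these rises was not tested.

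Of 18 other scavenger receptors, 13 of 17 tested were higher in Protocol 2 than in Protocol 3 Controls and 2 lower (40.1% and 37.2% of all genes), and 8 were higher and 5 lower in Protocol 1 (37.3% and 42.9%). Colec12, a collectin of class A, was higher in both Protocol 2 (4.71 ± 0.11, adjusted p = 8.12e-18) and Protocol 1 (6.73 ± 0.12, adjusted p = 1.44e-20). Cxcl16, a membrane-bound chemokine that also takes up oxidised lipoprotein, was lower in Protocol 1 than in Protocol 3 (-3.53 ± 0.082, adjusted p = 3.6e-18) and rose with HMGB1 in 1A (2.13 ± 0.11, adjusted p = 6.27e-08), 1B (3.09 ± 0.12, adjusted p = 2.32e-08) and 1C (2.52 ± 0.092, adjusted p = 1.4e-09). Lrp1, a large endocytic receptor, fell in 1A (-0.92 ± 0.074, adjusted p = 1.1e-07), 1B (-0.80 ± 0.071, adjusted p = 2.89e-06) and 1C (-1.04 ± 0.098, adjusted p = 2.67e-06). The list as a whole gave 3 rises and 5 falls of 12 tested in 1A, 3 and 4 of 15 in 1B, 6 and 5 of 15 in 1C, beside 29.7% and 31.6%, 29.8% and 32%, and 28.4% and 31.8% of all genes, and 0 of 16 in each adult protocol by edgeR. In Protocol 2, 2 of these (Colec12 and Cxcl16) had an unadjusted edgeR p below 0.05 (1418 of 15564 over all genes) and DESeq2 called Cxcl16. In Protocol 3 there were 0 of either kind (806 of 15401 unadjusted over all genes), but DESeq2 gave 4 of the 16 no adjusted p. Stab2, the close relative of Stab1, was higher in 1B (1.59 ± 0.34, adjusted p = 0.00124) and 1C (3.05 ± 0.33, adjusted p = 2.07e-06) than in 1A.

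Among 16 partners and regulators of these receptors, of which 15 were tested, HMGB1 raised 7 and lowered 6 in 1A, raised 8 and lowered 5 in 1B and raised 7 and lowered 4 in 1C. The shares of all genes that rose and fell were 29.7% and 31.6% in 1A, 29.8% and 32% in 1B and 28.4% and 31.8% in 1C. Tlr2, a Toll-like receptor that pairs with Cd36, rose in 1A (2.48 ± 0.064, adjusted p = 1.12e-12) and 1B (3.88 ± 0.097, adjusted p = 3.22e-10), and also in Protocol 2 (1.16 ± 0.068, adjusted p = 3.76e-06), where 3 of 15 rose and 1 fell (1.21% and 0.283% of all genes). Nr1h3, the liver X receptor, was another of those 3 (0.87 ± 0.1, adjusted p = 0.000495). Lyn, a kinase that signals from Cd36, rose in 1A (1.40 ± 0.067, adjusted p = 4.42e-10), 1B (2.28 ± 0.091, adjusted p = 6.02e-09) and 1C (2.30 ± 0.11, adjusted p = 1.11e-08). Pparg, the nuclear receptor known to drive Cd36, fell in 1C (-2.72 ± 0.12, adjusted p = 4.39e-09), where Cd36 itself did not pass with TMM scaling. Pparg in 1A and 1B and Tlr2 in 1C were outside the 3 genes named per comparison, and are not reported here. Against the Protocol 1 mean, the Pparg response in Protocol 2 differed by 2.25 ± 0.13, adjusted p = 3.47e-15. That of Tlr2 in Protocol 3 differed by -2.66 ± 0.12, adjusted p = 4.24e-18. In Protocol 3, 0 of 15 passed by edgeR or DESeq2, and 1 (Tlr2) had an unadjusted edgeR p below 0.05 (806 of 15401 over all genes). Among Controls, Slc40a1, the iron exporter downstream of haemoglobin uptake, was lower in Protocol 1 (-3.48 ± 0.071, adjusted p = 1.37e-19) and Protocol 2 (-3.54 ± 0.11, adjusted p = 1.4e-16) than in Protocol 3, as Cd163 was.

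The pattern of each gene over the 10 group means (log2 of CPM plus 0.5) was compared with those of 14311 expressed genes, as a description over groups that share their libraries and depth. Closest to Msr1 were Aoah (Pearson r = 0.999), Hmox2 and Fcer1g, and closest to Cd36 were Plekhb2 (0.991), Dock1 and Pja2. Mrc1 had Rnf13 (0.994) first and shared Plekhb2 and Dock1 with Cd36, and the 2 members had r = 0.984 with each other. For Marco the closest were Virma (0.976), Micall2 and Ccdc88a, and for Olr1 Fbxo38 (0.958), Bcl2a1a and Lpcat2. Cd163 came closest to Jmjd1c (0.998), Gpsm1 and Ptchd1, and Lyve1 to Kif27 (0.990), Nos1 and Otud7b, with r = 0.872 between Cd163 and Lyve1. Cd5l had Robo1 (0.990), B3galnt1 and Col5a1, Stab1 had Tceal8 (0.954), Copz2 and Pcdhgc3, and Scarb1 had Ash2l (0.967), Sort1 and Elovl6. Msr1 and Cd163 ran opposite, with r = -0.973, and the groups of Protocol 3 stand apart from the other 8 in both.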

How the data were processed

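RNA was measured by bulk sequencing in 30 libraries of mouse microglia, 3 in each of 10 groups, which were assigned from the labels. Per the labels, the authors used HISAT2 2.0.5 for alignment and featureCounts 1.5.0-p3 for counting, and the deposited table holds whole-number counts for 54532 genes, with no normalization. The genome build and the strand setting are not given in the sources used here. Of 54495 gene identifiers shared with GENCODE M21, 98.3% have the same position. Reads were not realigned, and results for other genes of the table are not reported here except where named.

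Fits were made in R 4.3.3 with edgeR 4.0.16 (limma 3.58.1, statmod 1.5.0). Genes were kept by filterByExpr, libraries were scaled by TMM, and the robust quasi-likelihood F test was adjusted by the Benjamini-Hochberg method over all genes tested, with a threshold of 0.05. The responses were fitted in the 6 libraries of a protocol over 13489 (1A), 13598 (1B), 14328 (1C), 15564 (Protocol 2) and 15401 (Protocol 3) genes, with 17033 for Controls (15 libraries) and 18182 for differences between responses (30 libraries). Protocol 1 is the mean of 1A, 1B and 1C there. Standard errors were taken from the F statistic. Counting intervals are exact at 95%, and they and floors (3 counts) cover counting error only. With 3 libraries against 3 an exact permutation test cannot go below p = 0.1, so none was used. The labels call the replicates biological, and the study describes them as isolations from distinct litters for neonatal cells. For adult cells a figure legend that covers cytokine secretion and sequencing gives distinct adult mice. Protocol 2 pooled 3 brains, and how its replicates relate to single mice is not stated further. The steps were tested on simulated data.

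The members and gene lists were chosen with earlier results of these data known. All 10 members are described. Of each other list and comparison, the 3 genes of lowest adjusted p could be named where they passed (some are not reported here), and other markers are given as levels. Likeness was computed for members that reached 5 CPM in the mean of some group and spanned a 4-fold range.

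Alternatives were size factors or the Wald test of DESeq2 1.42.0, no filter beyond 1 count, a log2 fold change of at least 1 in either direction, a block for the replicate number, other sets of libraries in the fit, 1A alone as Protocol 1, each library left out and, added after the data were seen, library totals without TMM factors. Whether equal replicate numbers pair Controls with treated libraries was checked by correlating their deviations from the group means, as the labels do not say that a number marks a shared batch. All 3 correlations exceeded 0.1 in 1B (0.176, 0.319 and 0.409), Protocol 2 (0.429, 0.285 and 0.28) and Protocol 3 (0.21, 0.191 and 0.283). They did not all exceed it in 1A (0.0294, 0.0868 and 0.107) or 1C (0.122, 0.0917 and 0.145). The numbers may thus mark pairs in 1B and Protocols 2 and 3, but the main fits were unpaired in every protocol. The block was an alternative only, and it was run in all protocols.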

Additional observations from a re-analysis of the deposited data

Results flagged for a closer look

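Differences between the responses to HMGB1 passed the test of the difference itself (edgeR, fit of 30 libraries, adjusted p below 0.05) for 14 combinations of gene and contrast, on the log2 scale. Protocol 2 minus Protocol 1 gave -1.29 ± 0.11 (SE, adjusted p = 7.24e-12) for Msr1, -2.39 ± 0.34 (4.63e-06) for Marco, -4.13 ± 0.43 (1.55e-08) for Olr1 and 0.58 ± 0.11 (2.89e-05) for Scarb1. Protocol 3 minus Protocol 1 gave -1.55 ± 0.11 (4.66e-13) for Msr1, -3.90 ± 0.69 (7.31e-05) for Marco, -5.02 ± 0.42 (4.09e-10) for Olr1, 0.32 ± 0.099 (0.00887) for Mrc1, 1.87 ± 0.49 (0.00214) for Cd163 and 0.53 ± 0.11 (0.00022) for Scarb1. The 1B response minus that of 1A was 0.42 ± 0.13 (0.0447) for Msr1, 2.54 ± 0.41 (0.000352) for Marco and 5.79 ± 1.00 (0.000482) for Olr1, and the 1C response minus that of 1A was -0.46 ± 0.13 (0.0163) for Scarb1. The values of Olr1 include 1B Controls with 1 count in all. That of Cd163 includes groups below 1 CPM, of which 1A and 1C had too few counts for a test of their own response.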

How the results depend on the processing

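Counts of members that passed are given with the value under the main settings in brackets. Calls over all genes were counted under the main settings and library totals only. A changed count under another setting is therefore no result about these genes in particular. A minimum absolute log2 fold change of 1 left 3 (5) in 1A, 5 (8) for Control 1B minus 1A, 5 (8) for Control 1C minus 1A and 0 (1) for the response in 1C minus 1A. Without the filter there were 7 (4) in 1C, 3 (1) in Protocol 2, 2 (0) for the response in Protocol 3 minus 2 and 4 (1) for 1C minus 1A. The DESeq2 Wald test gave 2 (1) in Protocol 2 and 3 (1) for the response in 1C minus 1A. Library totals gave 8 (4) in 1C, 0 (1) in Protocol 2, 8 (4) for the response in Protocol 2 minus 1 and 2 (1) for 1C minus 1A. With the replicate number as a block there were 7 (4) in 1C, 1 (0) in Protocol 3 and 2 (1) for the response in 1C minus 1A. The block also gave 7 in 1A, and it took away no call of a member. In 1A and 1C the correlations did not all exceed 0.1. In 1C each Control still correlated best with the treated library of the same number, a hint from the data and not from the design, whereas in 1A this failed for replicate 1.

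Leaving out 1 library gave 4 to 6 in 1A, 4 to 6 in 1B, 4 to 7 in 1C, 0 to 1 in Protocol 2 (0 without Control replicate 2 or HMGB1 replicate 3) and 0 to 0 in Protocol 3. For Controls it gave 9 to 10 (Protocol 2 minus 3), 10 to 10 (1 minus 3), 8 to 9 (1 minus 2), 8 to 8 (1B minus 1A) and 7 to 8 (1C minus 1A). For the responses it gave 4 to 5 (2 minus 1), 5 to 6 (3 minus 1), 0 to 0 (3 minus 2), 2 to 3 (1B minus 1A) and 0 to 2 (1C minus 1A).

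Of 144 member values, 3 turned sign in a setting where the value passed on at least 1 side: Cd5l in Control Protocol 1 minus 3 (-0.79) and Stab1 in Control Protocol 1 minus 2 (-0.73) with 1A alone as Protocol 1, and Cd36 in the response of Protocol 3 minus 1 (0.37) with library totals. A further 25 changed sign in some setting without passing on either side. Of 3559 alternative values 3360 kept direction and side of the threshold, 56 changed sign without passing on either side, 78 no longer passed and 62 newly passed. Causes were not tested. Depth limits Cd163 and Lyve1 outside Protocol 3 and Olr1 in 1B Controls, where counts were too few to show a difference of moderate size.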
